A study of Mus musculus with 6 samples.

Results

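The Pbx and Meis genes encode homeobox transcription factors that serve as cofactors of Hox proteins, and Pbx2, Pbx3, Meis1, Meis2 and Meis3 are described here. These 5 genes were taken by their symbols from the 54532 gene IDs in each count table, and all 5 IDs were found. RNA of whole heads from E8.5 mouse embryos was sequenced in 3 pools with Sf3b4 deleted in neural crest cells (mutant) and 3 wild-type pools, each made from 3 heads collected before embryos looked abnormal. Sf3b4 encodes a subunit of the splicing complex that recognises intron branch sites. The sample titles describe the mutants as homozygous nulls, whereas the genotype entries and the design text describe a neural crest mutant, which is the reading used here. No source used here names the driver of the deletion, the alleles of the wild-type embryos, the strain or the litters behind the pools. The p-values set the difference between genotypes against the spread between these pools, which may be technical. A difference of litter or strain between the genotypes could not be told apart from the deletion.

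PBX and MEIS proteins belong to the TALE class of homeobox proteins, in which a short loop lengthens the DNA-binding homeodomain. A PBX and a MEIS (or PREP) protein bind each other, which brings PBX into the nucleus, and the pair binds DNA together with Hox proteins in the hindbrain, trunk and pharyngeal arches and with other partners in the Hox-free head. Both families are known for roles in the face, the hindbrain and the neural crest, the migratory cells that form much of the facial skeleton.

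The homeobox of each gene is printed because the members are paralogs whose reads could in principle be confused. Each sequence is the homeobox of the longest annotated coding sequence in GENCODE M21 (GRCm38), 5′ to 3′ on the coding strand, 189 bases long. Capitals mark bases 79 to 87, the codons for proline, tyrosine and proline in the loop that defines the TALE class.
Pbx2: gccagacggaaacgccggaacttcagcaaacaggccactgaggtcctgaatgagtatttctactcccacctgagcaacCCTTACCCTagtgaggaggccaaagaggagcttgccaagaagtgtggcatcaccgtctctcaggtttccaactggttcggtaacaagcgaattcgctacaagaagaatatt
Pbx3: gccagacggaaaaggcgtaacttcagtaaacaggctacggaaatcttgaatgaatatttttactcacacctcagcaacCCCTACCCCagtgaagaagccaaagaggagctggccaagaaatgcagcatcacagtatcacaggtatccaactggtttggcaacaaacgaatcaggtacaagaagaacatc
Meis1: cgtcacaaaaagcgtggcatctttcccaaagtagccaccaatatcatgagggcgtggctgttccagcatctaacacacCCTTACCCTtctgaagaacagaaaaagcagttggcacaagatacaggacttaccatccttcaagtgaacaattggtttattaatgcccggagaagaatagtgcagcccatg
Meis2: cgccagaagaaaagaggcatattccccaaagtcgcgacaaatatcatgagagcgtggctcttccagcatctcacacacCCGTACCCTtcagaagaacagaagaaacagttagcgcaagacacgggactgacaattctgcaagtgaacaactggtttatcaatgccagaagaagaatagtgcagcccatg
Meis3: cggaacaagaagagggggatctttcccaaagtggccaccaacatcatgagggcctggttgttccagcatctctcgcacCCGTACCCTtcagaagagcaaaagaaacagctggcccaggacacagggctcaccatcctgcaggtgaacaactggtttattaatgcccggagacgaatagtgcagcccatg

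Within these homeoboxes Pbx2 and Pbx3 were identical at 156 of 189 bases (82.5%), and the Meis pairs at 82.0% to 84.7%. Between a Pbx and a Meis gene the identity was 48.1% to 53.4%. The differences are scattered, so the longest run of bases shared by the annotated transcripts of any 2 members was 32 bases, between Meis1 and Meis2, and it was 17 bases between Pbx2 and Pbx3. No 50-base window of a Pbx3 or Meis3 transcript occurred in a transcript of another gene on either strand. For Pbx2, 4.93% of windows were shared, all with Gpsm3, a neighbour on the same strand whose exons overlap 6.24% of Pbx2's exonic bases and which held 16 to 32 counts in the mutant pools and 11 to 25 in the wild-type pools. For Meis1, 9.16% of windows occurred in other genes on the same strand (243 genes) and 7.91% on the opposite strand (193 genes). For Meis2 the shares were 0.124% on the same strand (279 genes) and 0.173% on the opposite strand (275 genes). The exons of Meis1 overlap 2 predicted genes. Gm37818, on the same strand, overlaps 9.77% of Meis1's exonic bases. It held 5 to 7 counts in the mutant pools and 4 to 7 in the wild-type pools. Gm16140, on the opposite strand, overlaps 8.51% and held 0 counts in every pool. How many of the shared Meis1 windows lie in these overlaps was not counted.

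The genes lie apart in the genome (mm10, 1-based, from GENCODE M21). Pbx2 (ENSMUSG00000034673) is at chromosome 17, 34591266 to 34597400, plus strand, and Meis3 (ENSMUSG00000041420) at chromosome 7, 16175090 to 16186504, plus strand. Both are compact, spanning 6.13 and 11.4 kb, with 55.6% and 59.4% GC in their longest transcripts. Pbx3 (ENSMUSG00000038718) is at chromosome 2, 34171457 to 34373142, minus strand, Meis2 (ENSMUSG00000027210) at chromosome 2, 115863064 to 116065839, minus strand, and Meis1 (ENSMUSG00000020160) at chromosome 11, 18879817 to 19018985, minus strand. These 3 span 202, 203 and 139 kb, with 38.8%, 43.8% and 42.4% GC.

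The mutant pools held 12251910, 9715400 and 7420956 counts and the wild-type pools 10661159, 6930827 and 11797020. Values are given as CPM, meaning counts divided by TMM-adjusted library sizes. As a check of the labels, Sf3b4 itself had 56.1, 64.2 and 60.9 CPM in the mutant pools, against 77.7, 72.8 and 63.9 CPM in the wild-type pools, and did not pass the test (edgeR adjusted p = 0.128). The pools overlapped, with mutant replicate 2 just above wild-type replicate 3. This check therefore does not settle which description of the genotype is right. Neural crest is only part of the head, and a count for the whole gene also takes in any exons that were not deleted. How far either bears on the Sf3b4 values was not tested. Reads of 4 Y-linked genes numbered 580, 491 and 1 in the mutant pools and 1, 344 and 664 in the wild-type pools, so mutant replicate 3 and wild-type replicate 1 nearly lacked them. Markers of the trunk (Hoxb7, Hoxb8, Hoxb9, Hoxc8, Hoxc9, Cdx1, Cdx2, Meox1 and Tcf15) summed to 1.90 to 4.10 CPM in the mutant pools and 3.10 to 4.73 CPM in the wild-type pools, and 4 of the 9 were at 0 in every pool, whereas Otx2, a marker of the anterior head, averaged 124 CPM in both genotypes.

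None of the 5 members passed the test between mutant and wild-type heads (two-sided quasi-likelihood test of edgeR, p adjusted by Benjamini-Hochberg over 14008 genes, threshold 0.05). Over all tested genes 6.52% passed, with 2.65% higher and 3.88% lower in mutant heads. DESeq2 and limma-voom called 0 members as well, and 1 member of 5, Pbx3, had an unadjusted p under 0.05, as did 23.2% of all tested genes. Pbx3 was also the 1 member of 5 whose pools did not overlap between genotypes, and 28.3% of the tested genes were separated in this way, 14.4% with the mutant pools below. The median log2 fold change of the members was -0.035, beside 0.0023 over all tested genes.

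**Figure D1:**
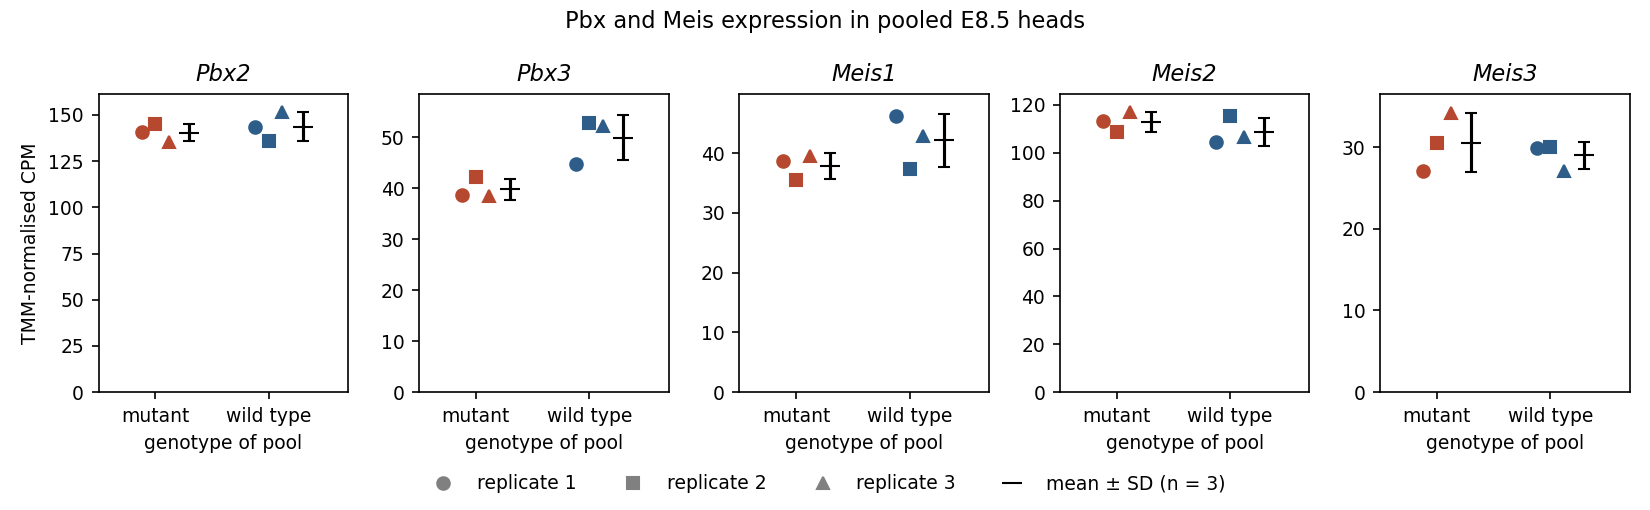
TMM-normalised CPM (y axis, from 0) of each member in the 3 mutant and 3 wild-type pools (x axis), with one symbol per replicate and the mean ± SD beside them. Pbx3 lies at 38.5 to 42.2 CPM in mutant pools, below the 44.8 to 52.8 CPM of wild-type pools, and the pools of the other 4 genes overlap.

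Pbx3, whose loss in mice leads to failure of breathing at birth, stood at 38.7, 42.2 and 38.5 CPM in the mutant pools, against 44.8, 52.8 and 52.2 CPM in the wild-type pools. Every mutant pool lay below every wild-type pool, with wild-type replicate 1 the nearest. The means were 39.8 ± 2.08 CPM in mutant heads and 49.9 ± 4.49 CPM in wild-type heads (SD, n = 3 each), which is 0.799-fold (95% interval 0.696 to 0.917) or -0.32 on the log2 scale (SE 0.0941). The edgeR adjusted p was 0.0509, just short of the threshold. Over 17 alternative analyses the fold change was negative in all and the adjusted p ran from 0.00421 to 0.232, with 6 of them under 0.05. The call was made without wild-type replicate 1 (edgeR adjusted p = 0.013) and with no other pool left out. Between the pools with few Y-linked reads Pbx3 had 38.5 CPM in mutant replicate 3 and 44.8 CPM in wild-type replicate 1, and in the 4 other pools the log2 fold change was -0.38.

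**Figure D2:**
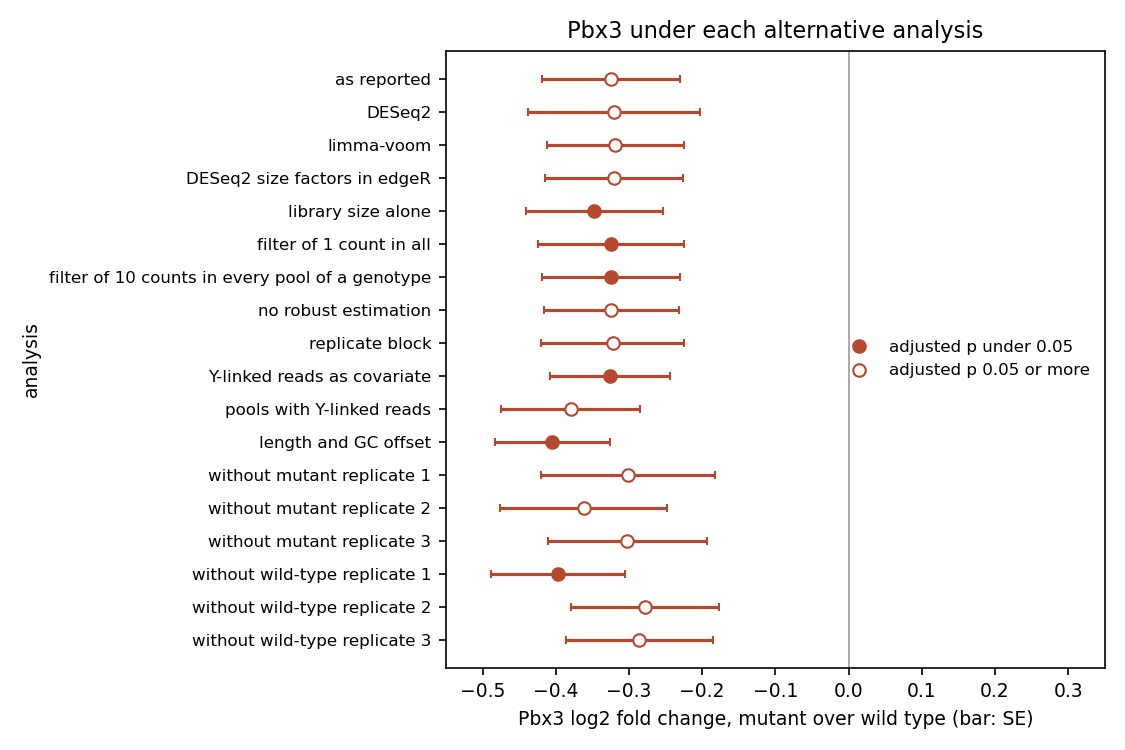
Log2 fold change of Pbx3, mutant over wild type (x axis, bars are SE), as reported and in each alternative analysis (y axis), with filled points where the adjusted p was under 0.05. All points lie between -0.40 and -0.28, and 6 of the 17 alternatives are filled.

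In bulk heads, fewer cells of a type and less RNA per cell cannot be told apart. Beside the lower Pbx3 values, neural crest markers were lower too: Sox10 and Tfap2b fell among 4 markers tested (with Foxd3 and Ets1), and the sum of the 4 was 158 to 183 CPM in mutant pools and 220 to 238 CPM in wild-type pools. Most of that sum was Ets1, which averaged 118 CPM in mutant and 137 CPM in wild-type heads and did not pass (edgeR adjusted p = 0.0962). Sox10 averaged 21.6 CPM in mutant and 47.8 CPM in wild-type heads, and Tfap2b 17.2 and 32.7 CPM. Foxd3 did not pass, and its pools overlapped. Surface ectoderm markers (Krt8, Krt18, Epcam, Cdh1 and Cldn6) summed to 491 to 550 CPM in mutant pools and 397 to 439 CPM in wild-type pools, with 1 of 5 passing, Cldn6, which rose. Endothelial markers (Kdr, Cdh5, Pecam1 and Tie1) summed to 194 to 211 CPM and 165 to 187 CPM in mutant and wild-type pools, and Kdr, 1 of the 4, rose, a call lost with limma-voom, with the replicate block and without mutant replicate 1, 2 or 3 or wild-type replicate 2. Head mesoderm markers (Foxc2, Tbx1 and Tcf21) summed to 31.2 to 34.6 CPM in mutant pools and 24.4 to 33.5 CPM in wild-type pools, which overlapped, and none passed. Neural tube (Sox1, Sox2, Sox3 and Pou3f1), heart (Nkx2-5, Myl7, Tnnt2, Myh6 and Actc1) and erythroid markers (Hbb-bh1, Hbb-y and Hba-x) overlapped between genotypes and none passed. The neural tube sums were 198.1 to 217.8 CPM in mutant pools and 186.2 to 201.5 CPM in wild-type pools. The heart sums were 23.46 to 30.88 CPM in mutant pools and spread more widely in wild-type pools, at 13.35 to 52.36 CPM. The erythroid sums were 73.23 to 161.4 CPM in mutant pools and 97.67 to 246.7 CPM in wild-type pools. Over all tested genes 3.88% fell and 2.65% rose. None of these markers was at 0 in every pool. Their part in the Pbx3 difference was not tested.

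Pbx2, which mice can lack without an obvious defect, was read at 141, 145 and 136 CPM in the mutant pools, against 144, 136 and 152 CPM in the wild-type pools. The pools were interleaved. The edgeR adjusted p was 0.813 for a log2 fold change of -0.035 with an SE of 0.0728, and the 95% interval of the fold ran from 0.877 to 1.09. Pbx2 had 961 to 1761 counts per pool, and its coefficient of variation was 3.33% over mutant pools and 5.53% over wild-type pools, where counting alone gives about 2.77% and 2.74%.

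Because Pbx2 and Pbx3 are read from the same libraries, their ratio of counts does not depend on the scaling. It was 0.276, 0.291 and 0.284 in the mutant pools, against 0.311, 0.389 and 0.344 in the wild-type pools. The ratio was lower in each mutant pool and varied less among them (0.283 ± 0.0078 in mutant heads and 0.348 ± 0.039 in wild-type heads, SD, n = 3 each). This separation is not independent of that of Pbx3, whose counts enter the ratio. The SD was smaller in mutant heads also for Meis1 over Meis2 (0.0081, against 0.0603 in wild-type heads). It was larger for Meis3 over Meis2 (0.0282, against 0.0174). Counting alone gives a coefficient of variation of about 5.21% for Pbx3 and 5.33% for Meis1 over mutant pools. The mutant SDs of the ratios with Pbx3 and Meis1 are below that, so nothing is drawn from their small size. No test was made of the ratios.

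**Figure D3:**
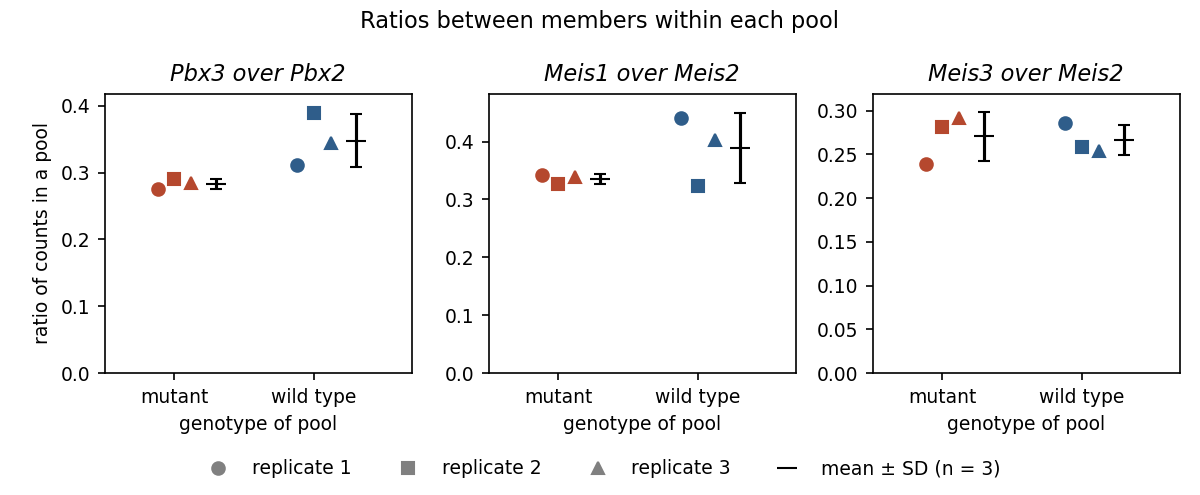
Ratio of the counts of 2 members within each pool (y axis, from 0) for Pbx3 over Pbx2, Meis1 over Meis2 and Meis3 over Meis2, by genotype (x axis), with one symbol per replicate and the mean ± SD. The mutant pools lie at 0.276 to 0.291 for Pbx3 over Pbx2, below the wild-type pools at 0.311 to 0.389, and the genotypes overlap in the other panels.

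Of the MEIS genes, Meis2 had the highest read counts. It is needed for the cranial neural crest in mice, and loss of 1 copy in humans is a known cause of cleft palate and heart defects. It stood at 113, 109 and 117 CPM in the mutant pools, against 105, 115 and 107 CPM in the wild-type pools. The ranges overlapped, and the log2 fold change was 0.055 with an SE of 0.0734 (edgeR adjusted p = 0.7, n = 3 each). The 95% interval of the fold, 0.932 to 1.16, was the narrowest among the MEIS genes.

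Meis1, which mouse embryos need for blood, vessel and eye development, had 38.7, 35.5 and 39.5 CPM in the mutant pools, against 46.1, 37.3 and 42.9 CPM in the wild-type pools. Of the wild-type pools, 2 lay above all mutant pools and replicate 2 lay among them. The log2 fold change was -0.16 (SE 0.0985, n = 3 pools each, edgeR adjusted p = 0.35), with a fold interval of 0.774 to 1.03. The ratio of Meis1 to Meis2 counts was 0.342, 0.326 and 0.338 in the mutant pools and 0.441, 0.323 and 0.403 in the wild-type pools, so the ranges overlapped through wild-type replicate 2.

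Meis3, which in frog and fish embryos promotes hindbrain fates, had the fewest counts, 212 to 329 per pool. It stood at 27.0, 30.5 and 34.1 CPM in the mutant pools, against 29.9, 29.9 and 27.0 CPM in the wild-type pools. The mutant pools spread around the wild-type ones. The edgeR adjusted p was 0.735 for a log2 fold change of 0.070 with an SE of 0.107, and the fold interval of 0.898 to 1.23 was the widest relative to its centre of the 5. Its coefficient of variation over mutant pools was 11.7%, against 5.9% from counting alone, and over wild-type pools 5.77% against 6.05%. The ratio of Meis3 to Meis2 was 0.239, 0.281 and 0.292 in the mutant pools and 0.286, 0.259 and 0.254 in the wild-type pools.

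**Figure D4:**
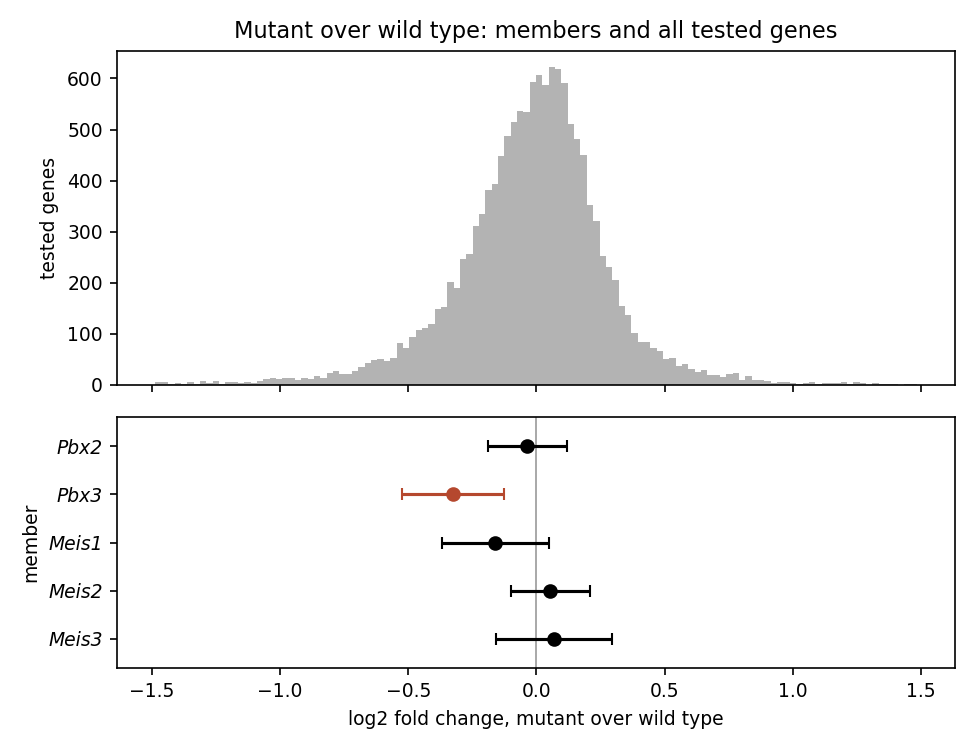
Lower panel, log2 fold change (x axis) of each member (y axis), mutant over wild type, with 95% intervals; upper panel, the number of tested genes (y axis) at each log2 fold change, with 73 genes beyond 1.5 in size not drawn. The interval of Pbx3 lies below 0, those of the other members include 0, and 12.1% of tested genes had a lower log2 fold change than Pbx3.

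Levels of different genes were compared per kilobase of merged exon. Pbx2 was highest, at 38.6 ± 1.28 CPM per kb in mutant heads and 39.5 ± 2.18 in wild-type heads (SD, n = 3 each). Meis3 followed at 9.63 ± 1.12 in mutant heads and 9.13 ± 0.527 in wild-type heads, and Meis2 at 9.38 ± 0.34 and 9.04 ± 0.481 CPM per kb in mutant and wild-type heads. Next came Pbx3, with 6.51 ± 0.34 in mutant heads and 8.17 ± 0.735 in wild-type heads, and then Meis1, with 3.6 ± 0.204 and 4.0 ± 0.425 CPM per kb in mutant and wild-type heads. Over the 6 pools Meis3 (8.51 to 10.8) and Meis2 (8.68 to 9.70) could not be ranked beyond their spread. Pbx3 (6.30 to 8.65) overlapped Meis3 as well, and its highest pool lay just below the lowest of Meis2. Pbx2 and Meis1 did not overlap any other member. The ratio of Pbx2 to Meis3 averaged 4.19 over the pools. This order depends on which isoforms are made. Per kilobase of longest transcript the order was Pbx2, Meis2, Pbx3, Meis3 and Meis1, with Pbx2 2.3 times Meis2 and with Pbx3 and Meis3 overlapping, and per kilobase of coding sequence Pbx2 was 1.43 times Meis2, with Pbx3, Meis1 and Meis3 overlapping in turn. Pbx2 was first under each of the 3 lengths.

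**Figure D5:**
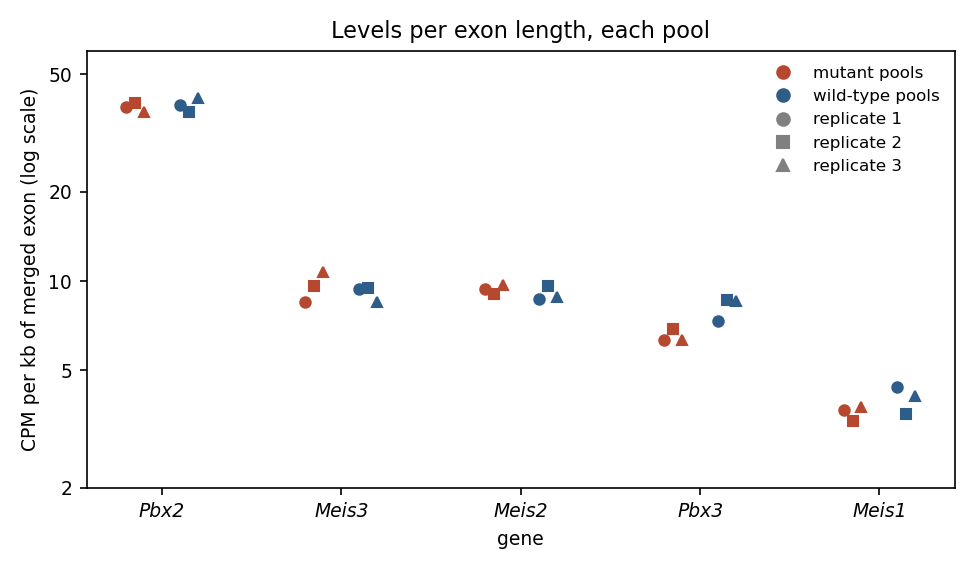
CPM per kilobase of merged exon (y axis, log scale) of each member (x axis) in each mutant and wild-type pool. Pbx2 lies at 37.2 to 41.7 in all pools, Meis3 and Meis2 overlap near 9, and Meis1 is lowest at 3.37 to 4.38.

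For each member the 2 genes with the most similar values over the 6 pools were found by the root mean square difference of centred log2 CPM, among 10261 genes with a mean of at least 5 CPM. For Pbx3 these were Nrd1 (0.0267) and Dhx9 (0.0339), with log2 fold changes of -0.29 and -0.34. Since they were picked for matching Pbx3 in the same pools, a similar difference between genotypes is built in by the choice. In all, 328 genes lay within 0.1 of the Pbx3 values. The most similar genes were Fbl and Ccdc34 for Pbx2, Slc35f5 and Rhob for Meis2, Cops7a and Cdk5 for Meis1, and Gorasp1 and Fars2 for Meis3, at 0.0138 to 0.0336. As many as 2346 genes lay within 0.1 of Pbx2 and 1892 of Meis2.

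The other TALE homeobox genes showed no call either. Of 12 listed, 11 were tested and none passed by edgeR, DESeq2 or limma-voom, 4 had an unadjusted p under 0.05 (23.2% over all tested genes), and the pools of 7 did not overlap between genotypes (28.3% over all tested genes). DESeq2 gave no adjusted p for Pbx4 and Mkx, so it did not judge them. In the list of other PBX and PREP genes (3 tested), Pknox2, which encodes a PREP protein that, like MEIS, binds PBX, had the smallest p. It averaged 54.8 ± 3.95 CPM in mutant heads and 65.7 ± 3.88 CPM in wild-type heads (SD, n = 3 each), and its log2 fold change was -0.27 (edgeR adjusted p = 0.0833), and it passed in 2 of the 17 alternatives, with a Y-linked covariate and when wild-type replicate 3 was left out. Of the TGIF repressors (2 tested), Tgif1 averaged 84.1 ± 0.592 CPM in mutant heads and 72.3 ± 0.156 CPM in wild-type heads (log2 fold change 0.22, edgeR adjusted p = 0.0883, n = 3 pools each), and passed in 2 of the 17, with Y-linked reads as a covariate and with an offset for length and GC content. Both Tgif1 SDs are below what counting alone gives at 512 to 1022 counts per pool, so they are no guide to its spread. Of the Iroquois genes and Mkx (6 of 7 tested), Irx1 averaged 32.1 ± 1.43 CPM in mutant heads and 40.8 ± 4.89 CPM in wild-type heads (log2 fold change -0.34, edgeR adjusted p = 0.0587, n = 3 pools each) and passed in 5 of the 17 alternatives, one of them without wild-type replicate 3.

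Hox proteins are the classical partners of PBX and MEIS proteins. Of 14 listed Hox genes of paralog groups 1 to 5, 4 had enough counts to be tested. None passed by edgeR, DESeq2 or limma-voom, though DESeq2 gave no adjusted p for Hoxb3, and 2 had an unadjusted p under 0.05 (23.2% over all tested genes). The median log2 fold change of the 4 was 0.19. The 14 together summed to 28.3 to 30.5 CPM in mutant pools and 23.8 to 25.0 CPM in wild-type pools, and 3 of them were at 0 in every pool. Hoxb2, which acts in the hindbrain, averaged 13.0 ± 0.603 CPM in mutant heads and 10.1 ± 0.571 CPM in wild-type heads (log2 fold change 0.36, edgeR adjusted p = 0.123, n = 3 pools each); 27.3% of its exonic bases overlap an opposite-strand gene.

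Among 11 tested of 14 other proteins reported to bind PBX or MEIS, 3 fell and none rose (3.88% and 2.65% over all tested genes). The median log2 fold change of the 11 was 0.0073. En1, a homeobox gene of the midbrain and hindbrain boundary, averaged 18.0 ± 3.82 CPM in mutant heads and 30.6 ± 1.3 CPM in wild-type heads (log2 fold change -0.79, SE 0.129, edgeR adjusted p = 0.00196, n = 3 pools each). Its paralog En2 fell by 1.30 on the log2 scale (SE 0.243, edgeR adjusted p = 0.0133), and Dlx2, a homeobox gene of arch and forebrain, fell by 1.04 (SE 0.257, edgeR adjusted p = 0.025). The call of En1 held in every alternative, that of En2 was lost without mutant replicate 2 or wild-type replicate 2, and that of Dlx2 without either of those or mutant replicate 3 or when the 2 pools nearly lacking Y-linked reads were left out.

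None of 12 tested of 13 reported targets of PBX or MEIS proteins passed by edgeR, DESeq2 or limma-voom, though DESeq2 gave no adjusted p for Wnt3. An unadjusted p under 0.05 was found for 2 of the 12 (23.2% over all tested genes), and the median log2 fold change of the 12 was 0.17. The smallest p was that of Wnt9b, a WNT gene of the facial ectoderm that PBX proteins regulate in mice, which averaged 7.66 ± 2.44 CPM in mutant heads and 5.27 ± 1.09 CPM in wild-type heads (log2 fold change 0.52, edgeR adjusted p = 0.2, n = 3 pools each). Retinoic acid induces Meis genes, and of 13 tested genes of its synthesis, breakdown and reception 2 rose and 1 fell. The shares over all tested genes were 2.65% and 3.88%, and the median log2 fold change of the 13 was 0.12. Aldh1a3, which makes retinoic acid, averaged 4.93 ± 0.784 CPM in mutant heads and 13.2 ± 4.2 CPM in wild-type heads (log2 fold change -1.41, SE 0.231, edgeR adjusted p = 0.00362, n = 3 pools each), a call that held in every alternative. Cyp26c1 and Cyp26a1, which break it down, also passed, in the other direction. Cyp26c1 averaged 103 ± 10.6 CPM in mutant heads and 75.2 ± 12.2 CPM in wild-type heads (log2 fold change 0.45, edgeR adjusted p = 0.0311, n = 3 pools each), and Cyp26a1 16.5 ± 2.43 CPM in mutant heads and 10.9 ± 1.78 CPM in wild-type heads (log2 fold change 0.58, edgeR adjusted p = 0.0318). Both calls were lost without mutant replicate 1, mutant replicate 3, wild-type replicate 2 or wild-type replicate 3. Other genes of synthesis and breakdown did not pass and leaned upward. The log2 fold change was 0.29 for Aldh1a2 (edgeR adjusted p = 0.259) and 0.18 for Rdh10 (edgeR adjusted p = 0.347), both of synthesis. For Cyp26b1, of breakdown, it was 0.091 (edgeR adjusted p = 0.8). Whether retinoic acid itself differed was not tested.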

How the data were processed

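The authors deposited a table of raw read counts for every pool, whole numbers by Ensembl gene ID with no normalisation. A Qiagen micro kit was used for extraction and an Illumina TruSeq kit for total RNA libraries, per the labels' protocols. Per the submitters' processing notes the build was mm10. No source used here names the aligner, the counter, the annotation or the strand setting. Of 54532 IDs, 54495 matched GENCODE M21, which gave symbols, coordinates, lengths and sequences.

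Counts were filtered with edgeR's filterByExpr, leaving 14008 genes, scaled by TMM and tested with edgeR's quasi-likelihood test (robust, two-sided) with Benjamini-Hochberg adjustment over all genes tested. A standard error is the log2 fold change divided by the square root of F. Versions were DESeq2 1.42.0, limma 3.58.1 and edgeR 4.0.16 under R 4.3.3, with Python 3.11.15 for summaries. On simulated counts for the same comparison (13825 genes), 62.7% of genes changed 1.5-fold, 83.6% changed 2-fold and 90.9% changed 4-fold were recovered, with 13 of 171 calls false. No change smaller than 1.5-fold was simulated, so these rates do not cover differences as small as those of the members (0.799-fold for Pbx3). No pools were duplicates: the chi-square of each pair, divided by its degrees of freedom, was 3.01 to 3.67 among mutant pools and 5.86 to 10.3 among wild-type pools. The wild-type pools thus differed more from each other, while the fit used a shared estimate of the spread.

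The homeobox was found as the 189 bases around the codons for the conserved recognition-helix motif (tryptophan, phenylalanine, any residue, asparagine, any residue, arginine). The members and lists were chosen with earlier results of these data known. Named are all members and, of each list, up to 4 genes that passed or else the 1 with the smallest p. Some genes first placed on the lists are not reported here and enter no count or sum of a list.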

Additional observations from a re-analysis of the deposited data

How the results depend on the processing

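The number of members called, 0 as reported, was 1 (Pbx3) with library size alone, with a filter of 1 count in all pools together, with a filter of 10 counts in every pool of a genotype, with Y-linked reads as a covariate, with an offset for length and GC content and at an adjusted p under 0.1; it was 0 to 1 with a pool left out. It stayed 0 with DESeq2, limma-voom, DESeq2 size factors, no robust estimation, the replicate block and the 4 pools with Y-linked reads. The log2 fold change of Pbx3 ran from -0.40 to -0.28. Those of Meis1 and Meis2 kept their sign but not their size. Leaving out wild-type replicate 1 gave -0.089 for Meis1 (-0.16 as reported) and 0.029 for Meis2 (0.055 as reported). Leaving out mutant replicate 2 gave -0.11 for Meis1 and 0.088 for Meis2. For Meis1 the value was -0.23 when wild-type replicate 2 was dropped, its lowest over the 17 alternatives. For Meis2 the value was 0.030 when mutant replicate 3 was dropped and 0.10 when wild-type replicate 2 was. It was also 0.031 with library size alone, 0.15 with the offset and 0.0012 over the 4 pools that had Y-linked reads. With a pool left out Pbx2 ran from -0.066 to 0.0061 (positive without wild-type replicate 3) and Meis3 from -0.011 to 0.16 (negative without mutant replicate 3). The cause was not tested.

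The 914 genes called over all tested became 1658 with Y-linked reads as a covariate, 535 in the 4 pools with Y-linked reads, 1550 at an adjusted p under 0.1 and 230 to 1810 with a pool left out. Of the genes in the pathway lists 6 were called, against 9 with Y-linked reads as a covariate and 2 to 7 with a pool left out. The ratio of Pbx2 to the next member per kilobase, 4.19, was 2.3 by longest transcript, 1.43 by coding length and 4.06 to 4.33 with a pool left out.

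Deviations of pools with the same replicate number had correlations of -0.161, 0.0515 and -0.0598. Between pools with unlike numbers they ran from -0.208 to 0.274, so these values cannot show whether same-numbered pools shared a litter. With the replicate number as a block 694 genes and 0 members were called, and Pbx3 had a log2 fold change of -0.32 (edgeR adjusted p = 0.0734). Depth limits Meis3 most, at 212 to 329 counts per pool.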
